A study of Mus musculus with 8 samples.

Results

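Binding of the homeodomain transcription factor OTX2 was examined at the genes of 4 secreted fibroblast growth factors (FGFs), Fgf8, Fgf17, Fgf18 and Fgf15. The members were the peaks of 8 deposited lists whose centre lay within 200 kb of a fixed position at each gene in the mouse genome build mm9. These positions were 45815000 on chromosome 19 for Fgf8, 71038000 on chromosome 14 for Fgf17, 33030000 on chromosome 11 for Fgf18 and 152084000 on chromosome 7 for Fgf15. Whether each position is the start of the gene or a point inside it was not checked in mm9, so distances are from that point and not from a start site. The rule used positions and no measured value, but the genes were chosen with earlier results of these data known. It found 17 of 26317 peaks, of which 16 came from OTX2 replicate 3, 1 from OTX2 replicate 2, and none from OTX2 replicate 1 or from any control list.

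All 8 libraries were made from wild-type mice of the CD-1 strain at stage E12.5, and each sample pooled tissue of several embryos. The tissue was labelled basal ganglia and septum, although the fixation protocol names the ganglionic eminences alone. There were 3 ChIP-seq libraries made with an antibody against OTX2, 3 libraries of input chromatin with no antibody, and 2 libraries made with normal goat IgG, which replicate 3 lacked. The tissue mixes many cell types, so a site bound in fewer cells and a site bound more weakly in each cell cannot be told apart. Peak lists carry no expression values, so the dissected tissue could not be checked against marker genes.

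FGFs are secreted proteins that bind receptor tyrosine kinases on nearby cells together with heparan sulphate. Fgf8, Fgf17 and Fgf18 form one subfamily, and their expression at the rostral midline of the embryonic telencephalon makes this tissue a signalling centre that patterns the septum and frontal cortex. Fgf15, the mouse counterpart of human FGF19, belongs to the endocrine subfamily and is expressed in progenitors of the embryonic forebrain and midbrain. In the adult the same gene acts in the gut as a hormone that restrains bile acid synthesis. The study concerned the part of OTX2 in regional patterning of the medial ganglionic eminence and in septal identity, and the ligand loci are a place where binding can be read beside that question.

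The 3 OTX2 lists differed widely in length, which sets what can be seen at any locus. Replicates 1, 2 and 3 held 1848, 1298 and 22325 peaks, and the 5 control lists held from 138 to 235. Peaks of replicate 3 had a median width of 827 bp, against 191 and 182 bp in replicates 1 and 2. Its track name also carries a tag, with the word score in it, that those of replicates 1 and 2 lack. Its peaks may have been called with other settings, in which case its number of peaks, widths and rank percentiles are not on the same footing as theirs. Replicate 3 thus stands apart from the other two, and every count below is given by replicate. The lists give an order of peaks (rank 1 is the best) and no height, fold or p-value. Read depth is unknown. In the input lists the median width was 152, 151 and 143 bp in replicates 1, 2 and 3. Why the OTX2 lists differ was not tested.

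At Fgf8, the ligand that defines the rostral signalling centre, 1 site was found in more than 1 OTX2 experiment. It lay 144 kb from the gene position on the side of lower coordinates. Replicate 2 had a peak there on chromosome 19 from 45670669 to 45670844 (mm9), 176 bp wide and ranked 949 of 1298. Replicate 3 had a peak from 45670242 to 45671375, 1134 bp wide and ranked 1306 of 22325. All 176 bp of the replicate 2 peak lay inside the replicate 3 peak, and the 2 centres were 52 bp apart. Replicate 1 had no peak at this site, and neither did any input or IgG list. The site was well placed in the long list (rank percentile 5.85%, where low is better) and in the poorer part of the short one (73.1%).

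Set against the other sites shared by at least 2 OTX2 lists and free of control peaks, called OTX2 regions here, the Fgf8 site was ranked near the middle. There were 1949 such regions, and 1944 of them included replicate 3. In that list 55.7% of these 1944 regions were ranked better than the Fgf8 site, and their median rank was 1112. It was 1 of 361 regions formed by replicates 2 and 3 alone, whose median ranks were 925 in replicate 2 and 1721 in replicate 3. Of the 501 replicate 3 peaks nearest to it in rank, the site itself included, 54.1% were overlapped by replicate 1 or 2. A window of 400 kb held at least 1 OTX2 region in 21.5% of the 6382 adjoining windows into which the genome was divided.

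The other 4 Fgf8 peaks were seen in replicate 3 alone. A peak from 45681510 to 45682505, ranked 7113, lay 11.2 kb from the shared site, on the same side of the gene. How often replicate 3 peaks lie this close together was not computed. Another peak on the same side, from 45619407 to 45619956 and ranked 10011, lay 195 kb away at the edge of the window. On the side of higher coordinates 1 peak lay at 43.4 kb (45858040 to 45858849, rank 18031) and 1 at 72.9 kb (45887531 to 45888329, rank 16455). These 2 were the nearest to Fgf8 and the worst-ranked of its 5 replicate 3 peaks. The smallest distance of an OTX2 peak from the Fgf8 position was 43.4 kb in replicate 3, 144 kb in replicate 2 and 666 kb in replicate 1. In the gene order of GRCm38, Fbxw4 is the next protein-coding gene on the lower side, and its introns are known to house enhancers of Fgf8. The next genes on the higher side are Npm3, Oga and Kcnip2. Whether a peak lies inside one of these genes was not analysed here, because no mm9 annotation was used.

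**Figure D1:**
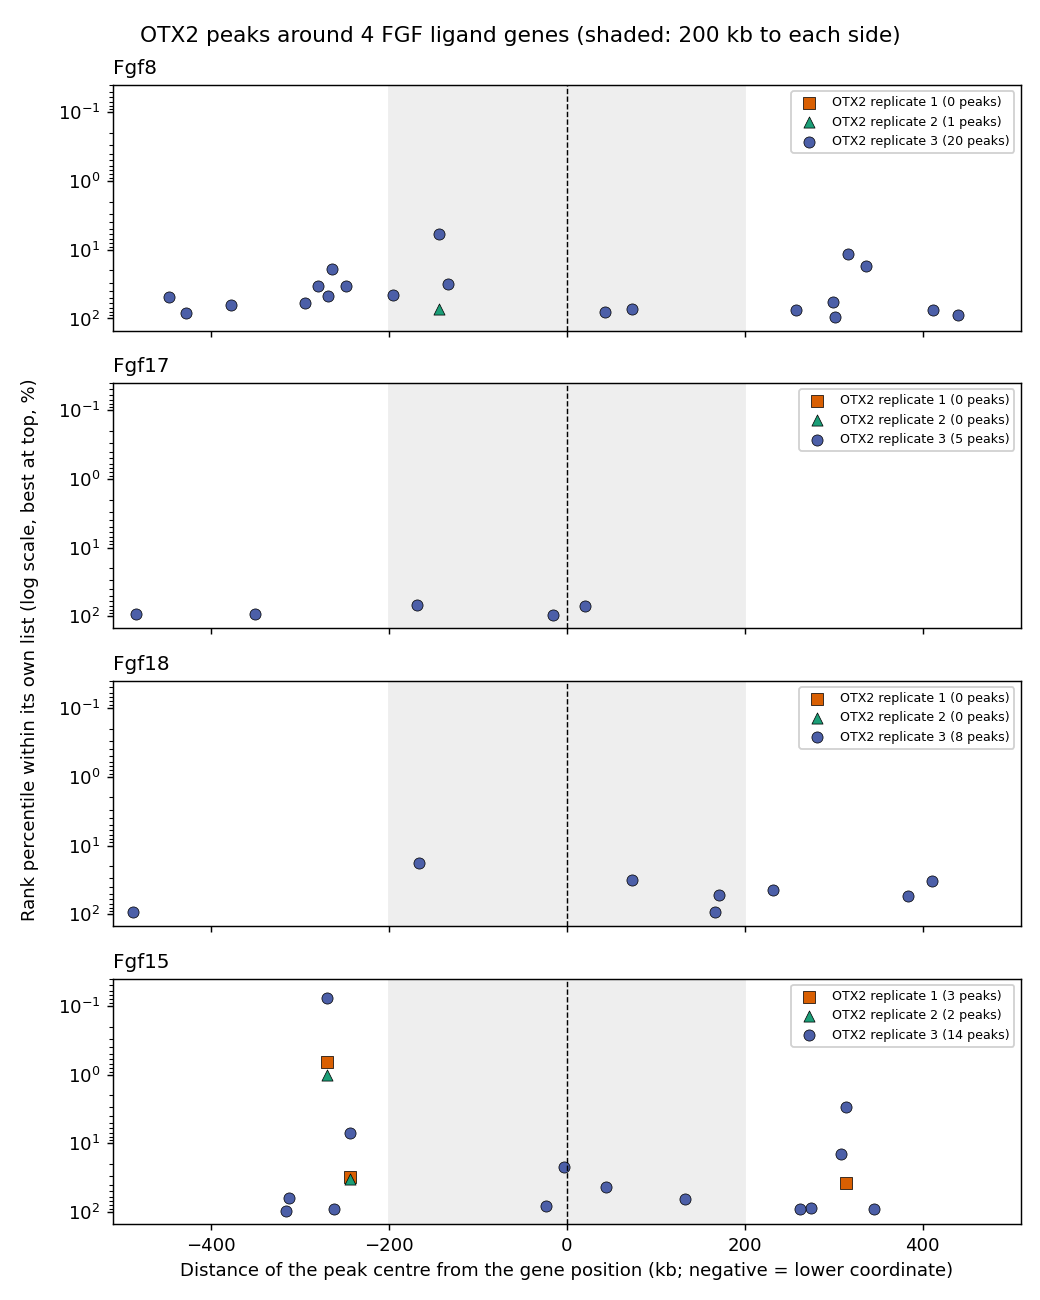
OTX2 peaks within 500 kb of each of the 4 gene positions, with the distance of the peak centre (kb) on the x axis and the rank percentile within the peak's own list on a reversed log y axis, so that the best-ranked peaks are at the top. Squares, triangles and circles are OTX2 replicates 1, 2 and 3, the dashed line is the gene position and the shaded band covers the 200 kb to each side that define the members. The shaded bands hold circles apart from 1 triangle at Fgf8, and squares and triangles at Fgf15 lie outside the band.

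Fgf17, a ligand of the same subfamily whose transcripts surround those of Fgf8 at the rostral midline, had 3 peaks, all from replicate 3 and all ranked in the poorer part of the list. The best was ranked 15061 and lay 168 kb away on the lower side (chromosome 14, 70869969 to 70870600). A peak ranked 15701 lay 20.6 kb away on the higher side (71058192 to 71059061). The nearest lay 14.9 kb away on the lower side (71022676 to 71023450) and was ranked 21160 of 22325. Replicates 1 and 2 had no peak within 500 kb of Fgf17. Their nearest peaks were at 670 and 833 kb, at different sites, and each of these was overlapped in replicate 3. A replicate 3 peak ranked at least as well as the best one of Fgf17 was present in 71.0% of the 400 kb windows of the genome. The next genes in GRCm38 are Dmtn on the lower side and Npm2 on the higher side.

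Fgf18, the remaining ligand of this subfamily, had 4 peaks, again from replicate 3 alone. The best-ranked one (rank 4063, rank percentile 18.2%) lay 166 kb away on the lower side (chromosome 11, 32863427 to 32864448). On the higher side a peak ranked 7164 lay at 73.7 kb (33103288 to 33104198). A pair of peaks followed at 167 and 171 kb, ranked 20991 (33196921 to 33197636) and 11620 (33200653 to 33201539), with centres 3.82 kb apart. No OTX2 list had a peak within 50 kb of the Fgf18 position, whereas replicate 3 had 1 within that distance at Fgf8, 2 at Fgf17 and 3 at Fgf15. Replicate 3 held 8.75 peaks per Mb over the genome, and the share of places with no peak within 50 kb was not computed. The gap is therefore not read as a trait of Fgf18. The nearest peaks of replicates 1 and 2 were at 983 and 1017 kb. A replicate 3 peak ranked at least as well as 4063 was present in 36.4% of windows. The next genes in GRCm38 are Smim23 and Fbxw11 on the lower side and Npm1 and Tlx3 on the higher side.

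The RefSeq promoter table (GRCm38.p6) held Fgf18 of the 4 ligands. Fgf8, Fgf17 and Fgf15 had no entry. The 300 bp window around the Fgf18 start held no match on either strand to TAATCC, a motif of the OTX type of homeodomain, or to its shorter form TAATC, which also covers every TAATCC. Among all 32851 promoter windows of that length, 7.06% held TAATCC and 22% held TAATC. These letters are not in that window, and nothing about binding follows from their absence.

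Of the 4 ligands, Fgf15 had the peak closest to its fixed position, although these positions may lie in different parts of the 4 genes. A replicate 3 peak on chromosome 7 from 152080400 to 152081969 was ranked 4984 (rank percentile 22.3%), and its centre lay 2.82 kb from the position. A peak of replicate 3 was as near as this to the centre of 5.11% of the 400 kb windows. Window centres are arbitrary places and gene positions are not, so this share is a description of the list alone. It was computed for Fgf15 only, the locus with the closest peak of the 4, and makes no allowance for that choice. A second peak, ranked 9474, lay 44.3 kb away on the higher side (152127213 to 152129439). The other 2 lay 133 kb away on the higher side (152216661 to 152217517, rank 14559) and 22.8 kb away on the lower side (152060853 to 152061486, rank 18451). None of the 4 was overlapped in another list. A replicate 3 peak ranked at least as well as 4984 was present in 41.5% of windows.

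Several of the 16 peaks were wide for their rank, at Fgf15, Fgf8 and Fgf17. The Fgf15 peak near the gene position spanned 1570 bp, and 9.58% of the 501 peaks nearest in rank, itself included, were at least as wide. The Fgf15 peak at 44.3 kb spanned 2227 bp, the widest of the 16 replicate 3 peaks at the 4 loci, and 3.19% of its neighbours in rank were at least as wide. The medians of those neighbours were 991 and 926 bp. The shares were as low or nearly so for poorly ranked, narrower peaks: 5.59% for the Fgf15 peak ranked 14559, 4.59% and 10.8% for the Fgf8 peaks ranked 18031 and 16455, and 5.19% for the Fgf17 peak ranked 21160. Width for rank was thus not particular to Fgf15. At the other end, the Fgf8 peak at the window's edge was the narrowest of the 16, with 550 bp, and 96.4% of its neighbours in rank were at least as wide. Over all 16 the median width was 864 bp, beside 827 bp for the whole list, and 9 of 16 were wider than the list's median.

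**Figure D2:**
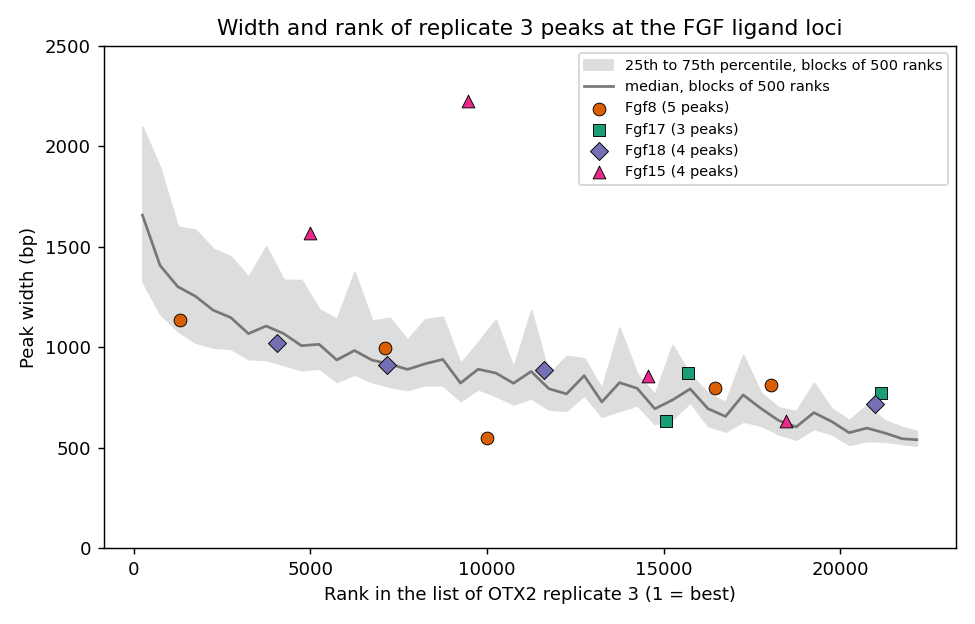
Width (bp) against rank for the 16 replicate 3 peaks at the 4 loci (coloured symbols), over the median (line) and the 25th to 75th percentiles (band) of the whole list of OTX2 replicate 3 in blocks of 500 ranks. The 2 highest symbols are Fgf15 peaks of 1570 and 2227 bp, and the lowest is the Fgf8 peak of 550 bp.

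Just beyond the window on the lower side of Fgf15 lay 2 regions found in all 3 OTX2 lists. The nearer one, 244 kb away (chromosome 7, 151839272 to 151840510), was ranked 563, 426 and 1573 in replicates 1, 2 and 3. The farther one, 270 kb away (151813105 to 151815212), was ranked 12, 13 and 17. By mean rank percentile it stood in place 12 of the 789 regions found in all 3 lists. Its peaks were 595, 424 and 2108 bp wide in replicates 1, 2 and 3. On the higher side a region at 314 kb (152397372 to 152398389) was ranked 701 in replicate 1 and 652 in replicate 3. These 3 regions are no members, and none was assigned to a gene. On the lower side of Fgf15 the next protein-coding genes in GRCm38 are Fgf4, Fgf3 and Ano1, and on the higher side LTO1, Ccnd1 and Tpcn2. Of the 18 other FGF ligands listed for comparison, Fgf3 and Fgf4 were the ones next to a member gene, so a peak near Fgf15 has several FGF genes around it. The remaining ligands were not analysed here for want of mm9 positions.

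The edges of the other windows held no such sites. At Fgf8 the last peak inside was at 195 kb (rank 10011 in replicate 3) and the first outside at 248 kb (rank 7629). At Fgf17 these were at 168 kb (rank 15061) and 350 kb (rank 20345), and at Fgf18 at 171 kb (rank 11620) and 232 kb (rank 9922). At Fgf15 the last peak inside was at 133 kb (rank 14559). The first outside was the region at 244 kb.

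The comparison with input asked whether the loci carried more peaks with the OTX2 antibody than without. The Fgf8 window held 0, 1 and 5 peaks in OTX2 replicates 1, 2 and 3. The Fgf17 window held 0, 0 and 3, and the windows of Fgf18 and Fgf15 each held 0, 0 and 4. Every input and IgG list had 0 at all 4 loci, so OTX2 replicate 1 was level with the controls throughout and replicate 2 exceeded them at Fgf8 alone. The mean number was 2 ± 2.65 (SD, n = 3 libraries) at Fgf8, 1 ± 1.73 at Fgf17, and 1.33 ± 2.31 at both Fgf18 and Fgf15, against 0 ± 0 in input (n = 3). An exact two-sided permutation test gave p = 0.4 at Fgf8 and 1 at the other loci (Benjamini-Hochberg adjusted p = 1 over 4 loci). In general 3 against 3 cannot go below 0.1, but these counts could not reach that value. At Fgf17, Fgf18 and Fgf15 only replicate 3 held peaks, so every relabelling gave a difference of the same size and p was fixed. At Fgf8, where only replicates 2 and 3 held peaks, 0.4 was the lowest p that this test could give. The test therefore could not decide whether OTX2 exceeded input. The control lists are short, and their 846 peaks together gave at least 1 peak in 7.63% of the 400 kb windows. An observed 0 of 846 allows a share of up to 0.355% of control peaks at these loci, from 3 counts and for counting error alone. For OTX2 replicate 1, 0 of 1848 peaks allows up to 0.162%.

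With 500 kb to each side, Fgf15 was the locus where all 3 OTX2 libraries exceeded all 3 inputs. The numbers of peaks were 3, 2 and 14 in OTX2 replicates 1, 2 and 3 and 0 in each input (difference in mean 6.33, two-sided exact permutation of the libraries, p = 0.1, which is the lowest possible, and Benjamini-Hochberg adjusted p = 0.4). Such a separation was found in 23.0% of the 2547 adjoining 1 Mb windows of the genome, and at least 3 OTX2 regions in 8.32% of them. Around Fgf8 the numbers were 0, 1 and 20, around Fgf17 0, 0 and 5, and around Fgf18 0, 0 and 8. In replicate 3 a 1 Mb window held a median of 7 peaks. A number as high as around Fgf8 was reached by 8.13% of windows, around Fgf15 by 22.9%, around Fgf18 by 49.5% and around Fgf17 by 67.3%.

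Within 200 kb the number of peaks at the ligands was close to that of the genome at large. Replicate 3 had 10 peaks per Mb over the 1.6 Mb of the 4 windows and 8.75 per Mb over the genome. Adjoining 400 kb windows held a median of 3 peaks (interquartile range 1 to 5). At least 5 peaks, as at Fgf8, were present in 30.2% of windows, at least 4, as at Fgf18 and Fgf15, in 39.8%, and at least 3, as at Fgf17, in 51.3%. At least 1 peak was present in 79.3%. For the short lists the corresponding shares were 20.6% for replicate 1, which had no peak at any of the 4 loci, and 15.1% for replicate 2, which had a peak at 1 of 4. The members made up 0.0717% of the replicate 3 list (exact Clopper-Pearson 95% interval 0.041 to 0.116%) and 0.077% of the replicate 2 list (0.00195 to 0.428%). These intervals cover counting error alone.

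**Figure D3:**
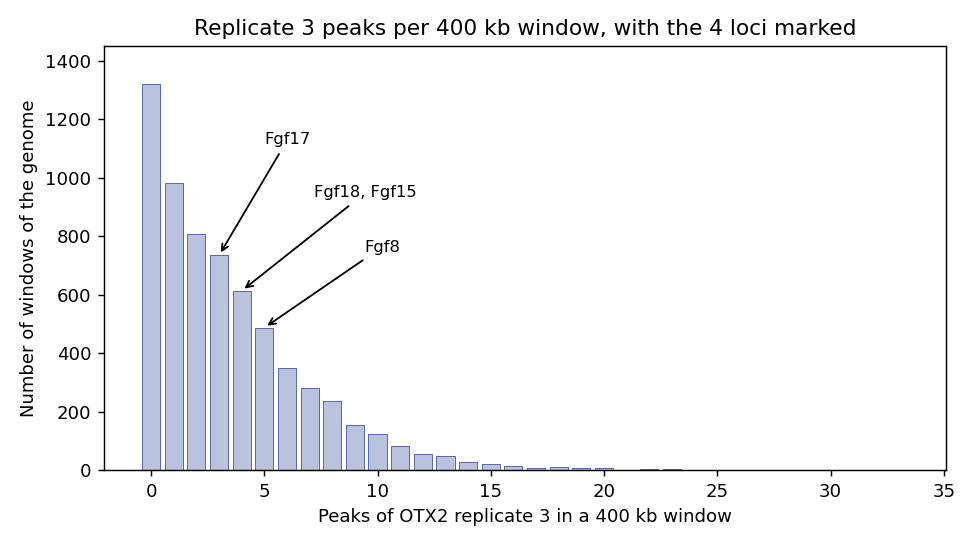
Number of adjoining 400 kb windows of the genome (y axis) by the number of OTX2 replicate 3 peaks they held (x axis), with arrows at the numbers found in the windows of the 4 ligand genes. The loci, with 3 to 5 peaks, lie between the median of 3 and the 75th percentile of 5, which Fgf8 reaches.

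Ranks at the loci were spread over the list of replicate 3. Of the 16 replicate 3 peaks, 1 was in the best-ranked 10% of the list (at Fgf8), 3 in the best 25% (1 each at Fgf8, Fgf18 and Fgf15) and 7 in the best 50%. The median rank percentile was 58.6% over the 16, 42.1% at Fgf18, 44.8% at Fgf8, 53.8% at Fgf15 and 70.3% at Fgf17. Within 200 kb the best ranks put the loci in the order Fgf8 (1306), Fgf18 (4063), Fgf15 (4984) and Fgf17 (15061). The order depended on the window: Fgf15 led both within 100 kb, where the best rank percentile was 22.3% at Fgf15 and 73.7% at Fgf8, and within 500 kb, where its best rank was 17. A peak at least as well ranked as 1306 was present in 15.3% of windows. The ranks within 100 and 200 kb given here come from replicate 3 alone, so the differences between the loci have no replicate check there. Within 500 kb the Fgf15 site of rank 17 was also ranked 12 in replicate 1 and 13 in replicate 2. At that distance replicate 1 had no peak at the other loci, and replicate 2 had 1, at Fgf8 (rank 949). None of these differences was tested.

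Few of the peaks recurred. Another OTX2 list overlapped 1 of the 16 replicate 3 peaks (6.25%, exact 95% interval 0.158 to 30.2%), beside 8.83% of all replicate 3 peaks. The single replicate 2 peak was overlapped by replicate 3, as were 92.1% of all replicate 2 peaks. Among the 501 peaks nearest in rank, the share overlapped by replicate 1 or 2 was 8.38% for the best peak of Fgf18, 5.19% for that of Fgf15 and 0% for that of Fgf17. Peaks of these ranks were seldom found again in the short lists. At this list length the missing overlap at Fgf17, Fgf18 and Fgf15 does not show that binding is absent from replicates 1 and 2.

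By position, 8 of the 16 replicate 3 peaks lay on the lower side of their gene and 8 on the higher side. Distances from the gene position were at most 50 kb for 6 of 16, of which 3 were at Fgf15, 2 at Fgf17 and 1 at Fgf8, and above 100 kb for 8. The shared Fgf8 site was among those 8. Peaks covered 5288 bp of the Fgf15 window, 4289 bp of the Fgf8 window, 3536 bp of the Fgf18 window and 2277 bp of the Fgf17 window, so Fgf15 led in covered length although Fgf8 had more peaks.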

How the data were processed

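The authors deposited 1 peak list per library in BED form (chromosome, start, end, rank), so peaks were called per library and not on pooled samples. BWA, MACS 1.4 and the build mm9 are named in the submitters' processing notes. The threshold, the control and the quantity that orders the ranks were not given in the sources used here. Replicate numbers came from the sample titles, and separate litters are not stated, so p-values measure the spread between these libraries. The member genes and lists were chosen with earlier results of these data known.

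Counts used Python 3.11.15 (numpy 2.4.6, with scipy 1.17.1 for intervals). Their functions were tested on simulated data, and bedtools 2.31.1 gave the same window counts for all 8 lists. Peaks sharing at least 1 bp overlapped, and an OTX2 region needed 2 of 3 OTX2 lists and no control peak. Adjoining windows ran from the lowest to the highest peak of each chromosome, leaving out mitochondrial DNA. Starts are written 1-based. The GRCm38 gene table matched all 4 genes and was used for names and neighbours. All 4 genes, all OTX2 peaks and regions in their windows were named. No genome sequence was used, so no peak sequence is shown.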

Additional observations from a re-analysis of the deposited data

How the results depend on the processing

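The test against input passed the threshold of 0.05 in none of 52 values (4 loci, the main setting and 12 alternatives each), with adjusted p from 0.375 to 1. With so few libraries this says nothing about stability. The difference in mean number of peaks fell to 0 at Fgf17 with the better-ranked 50% of each list, and to 0 at Fgf17, Fgf18 and Fgf15 with OTX2 lists cut to the length of the shortest (1298 peaks), which took Fgf8 from 2 to 0.333. Leaving out 1 replicate gave differences from 0.5 to 3 at Fgf8, 0 to 1.5 at Fgf17, and 0 to 2 at Fgf18 and Fgf15, the lowest without replicate 3. Paired by replicate number (replicate block), the differences stayed at 2, 1, 1.33 and 1.33 for Fgf8, Fgf17, Fgf18 and Fgf15. An exact sign-flip test gave p = 0.5 at Fgf8 and 1 elsewhere (adjusted p = 1), where 3 pairs cannot go below 0.25. Pairs that differed by 0 fixed these values, whatever the size of the positive differences, so this test could not decide either. The libraries share a number and no stated origin.

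The single OTX2 region of Fgf8 became 0 within 100 kb, with the better-ranked 50% of each list, with lists of the shortest length and when all 3 libraries were required. It was 0 to 1 with 1 replicate left out (0 without replicate 2 or 3). At equal list length it was lost because rank 1306 in replicate 3 falls just past the 1298 peaks kept. Counting any 1 library gave 5 regions at Fgf8, 3 at Fgf17, 4 at Fgf18 and 4 at Fgf15. With 500 kb to each side Fgf15 had 3.

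Within 100 kb, the share of windows with as many replicate 3 peaks was 42.5% for Fgf8 and Fgf17, 63.9% for Fgf18 and 26.5% for Fgf15. The best rank percentile was then 73.7% at Fgf8, 70.3% at Fgf17 and 32.1% at Fgf18, so Fgf8 no longer led and Fgf15, with 22.3%, did. Mean instead of median rank percentiles were 47.4% at Fgf8, 77.5% at Fgf17, 49.1% at Fgf18 and 53.2% at Fgf15.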
